A study of Mus musculus with 27 samples.

Results

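The 10 genes of the Notch pathway described here were followed by name through RNA-seq of C2C12 cells. They were the 4 receptors Notch1, Notch2, Notch3 and Notch4, the 4 ligands Dll1, Dll4, Jag1 and Jag2, the nuclear factor Rbpj and the feedback inhibitor Nrarp. All 10 were found among the 24825 genes of the deposited tables. C2C12 is a mouse myoblast line, and each of the 27 samples came from it. The cells carried 1 of 3 constructs, given by the labels as ctrl (control here), NFIA and deltapro#3 (Δpro#3 here). NFIA cells received the full-length transcription factor NFIA by retrovirus, and Δpro#3 cells received NFIA without the pro#3 segment of its C-terminal proline-rich domain. The NFIA forms were thus expressed from a viral vector and not from the Nfia locus. All groups shared a medium with fetal bovine serum, and those of day 7 had in addition been switched at confluence to rosiglitazone, T3, insulin, dexamethasone, indomethacin and isobutylmethylxanthine, with rosiglitazone, T3 and insulin continued afterwards. RNA was taken before differentiation (day 0), on day 7, and on day 7 from cells given 10 µM forskolin for 4 h, with 3 samples in each of the 9 groups. Forskolin activates adenylyl cyclase and so raises cyclic AMP. Nothing in the labels says that the 3 samples of a group came from separate cultures, so the p-values measure the spread between these samples, which may be technical.

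Notch signaling passes between touching cells. A ligand of the Delta or Jagged family on one cell binds a Notch receptor on its neighbour, the receptor is cut by an ADAM protease and then by γ-secretase, and the freed intracellular domain joins RBPJ on DNA and turns on genes such as those of the Hes and Hey families. Fringe enzymes add sugars to the receptors and shift their preference between Delta and Jagged ligands. In muscle, Notch is known for holding progenitors undifferentiated, and Notch3 and Jag2 are among its muscle components. Endothelial cells are the best-known source of Notch4 and Dll4.

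In the NCBIM37 annotation (GENCODE), all members were protein-coding genes. Notch1 was at chromosome 2, 26313423 to 26372183, Notch2 at chromosome 3, 97817461 to 97954290, Notch3 at chromosome 17, 32257765 to 32303825, and Notch4 at chromosome 17, 34701213 to 34725448. Among the ligands, Dll1 was at chromosome 17, 15504318 to 15513836, Dll4 at chromosome 2, 119151520 to 119161698, Jag1 at chromosome 2, 136907192 to 136942380, and Jag2 at chromosome 12, 114146801 to 114167706. Rbpj was at chromosome 5, 53947018 to 54048684, and Nrarp at chromosome 2, 25036278 to 25038850.

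Promoter sequences are shown for 5 members whose levels separated the constructs and for the fringe gene Lfng. They are RefSeq sequences of GRCm38.p6, a later build than the mm9 of the expression files, and each is the 250 bases before the start of the gene, written 5′ to 3′ on the strand of the gene. Capitals mark TGGGAA (the core letters that RBPJ binds) or CAGCTG (an E-box of the kind that myogenic factors bind), found on either strand. Notch1 and Jag1 were the tested members called higher in NFIA than in control cells at day 0. Their promoters lay on the minus strand at chr2:26503823-26504072 and chr2:137116521-137116770.
Notch1: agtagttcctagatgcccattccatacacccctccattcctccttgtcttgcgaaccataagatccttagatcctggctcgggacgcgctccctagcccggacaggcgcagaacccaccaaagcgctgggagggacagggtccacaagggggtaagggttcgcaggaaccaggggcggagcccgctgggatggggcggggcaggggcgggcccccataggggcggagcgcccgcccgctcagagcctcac
Jag1: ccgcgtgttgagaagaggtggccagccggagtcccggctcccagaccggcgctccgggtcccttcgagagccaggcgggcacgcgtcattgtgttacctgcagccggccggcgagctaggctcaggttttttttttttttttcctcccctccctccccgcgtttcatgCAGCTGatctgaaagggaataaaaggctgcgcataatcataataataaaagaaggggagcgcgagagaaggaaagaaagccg
Notch3, Dll1 and Jag2 were lower with either NFIA form at day 0. Their promoters lay on the minus strand at chr17:32166891-32167140, chr17:15376933-15377182 (the more upstream of the 2 starts of Dll1) and chr12:112929496-112929745.
Notch3: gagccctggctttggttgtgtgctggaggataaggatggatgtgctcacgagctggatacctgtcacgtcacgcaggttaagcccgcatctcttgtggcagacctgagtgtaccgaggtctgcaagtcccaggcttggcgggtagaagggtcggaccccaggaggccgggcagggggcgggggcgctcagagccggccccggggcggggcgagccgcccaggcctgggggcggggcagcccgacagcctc
Dll1: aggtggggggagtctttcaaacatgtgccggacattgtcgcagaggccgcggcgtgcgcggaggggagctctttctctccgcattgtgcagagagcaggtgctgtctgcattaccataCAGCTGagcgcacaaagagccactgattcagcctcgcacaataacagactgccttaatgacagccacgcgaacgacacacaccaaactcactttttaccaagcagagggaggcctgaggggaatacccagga
Jag2: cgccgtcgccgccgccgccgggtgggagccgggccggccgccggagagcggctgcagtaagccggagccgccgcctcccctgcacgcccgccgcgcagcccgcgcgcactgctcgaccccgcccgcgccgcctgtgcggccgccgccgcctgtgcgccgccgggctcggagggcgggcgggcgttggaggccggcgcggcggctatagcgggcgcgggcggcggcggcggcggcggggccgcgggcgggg
Lfng was on the plus strand at chr5:140607091-140607340.
Lfng: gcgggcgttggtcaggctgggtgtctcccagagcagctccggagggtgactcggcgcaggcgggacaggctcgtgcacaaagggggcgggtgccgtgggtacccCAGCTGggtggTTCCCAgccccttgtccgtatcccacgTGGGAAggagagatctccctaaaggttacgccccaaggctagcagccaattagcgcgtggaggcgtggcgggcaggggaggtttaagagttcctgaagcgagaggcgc

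All 10 members had an entry in the promoter table, with 12 promoters in all. TGGGAA was in 2 of them, both at Rbpj, and in 21.6% of the 32851 promoters of the table. CAGCTG was in 2, at Jag1 and at the upstream start of Dll1, against 13% of all. Neither NFI motif searched was in any of the 12. These were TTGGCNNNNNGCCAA, in 0.0365% of all promoters, and the shorter TTGGCA, in 12.3%. TTGGCA does not lie within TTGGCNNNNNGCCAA unless the first N is A or, on the other strand, the last N is T. Lfng held 2 matches of TGGGAA and 1 of CAGCTG. These are matches of letters in a short window and not binding sites.

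The libraries held 9567769 to 27230965 fragments. Values are FPKM (fragments per kilobase of gene, scaled to the size of the library), so levels of different genes can be compared. Nfia was at 0.0885 to 7.35 FPKM in control samples and at 225 to 594 FPKM in samples of the NFIA forms. By group, Nfia was at 242 ± 14.2 FPKM in NFIA and 406 ± 14.6 in Δpro#3 cells at day 0, 482 ± 40.1 and 413 ± 58.9 at day 7, and 539 ± 49.9 and 294 ± 43.8 after forskolin. Limma called the difference between both forms after forskolin (log2 change -0.88 for Δpro#3 against NFIA, adjusted p = 1.85e-05). At day 7 it did not call it (-0.23, SE 0.10, adjusted p = 0.0751), and the samples overlapped. At day 0 it did not call it either (0.75, SE 0.54, adjusted p = 0.244), but there the samples did not overlap. They were at 225, 249 and 250 FPKM in NFIA and 423, 398 and 397 in Δpro#3 cells. The SE comes from a spread shared with the control samples, which ranged from 0.175 to 7.35 FPKM at day 0. The part of these Nfia levels in the differences of members between both forms was not tested. The control sample at 7.35 FPKM was replicate 2 of day 0, whose fellow samples were at 0.879 and 0.175 FPKM, and without it no call on a member changed. Replicate 1 stood apart in 3 groups. The chi-square per gene between its fragments and those of the other two was 13.6 and 13.3 in Δpro#3 cells at day 7 (5.66 between the other two), 12.8 and 14.2 in NFIA cells after forskolin (3.27) and 11.3 and 13.2 in Δpro#3 cells after forskolin (5.76). Leaving out each of these samples lost no call on a member, and the calls gained are given beside the results or, for Dll4, in the closing section. Summed levels of other cells' markers moved with the groups. The 8 myotube markers summed to 1145 to 1240 FPKM in control cells at day 0, 13.5 to 16.4 with NFIA and 76.9 to 86.0 with Δpro#3, and to 11114 to 12974, 1981.5 to 2803.3 and 13147 to 13907 FPKM at day 7. For Δpro#3 against control at day 7, 1 of the 8 was called higher (Acta1, 4832 against 2825 FPKM) and 2 lower (Myog, 489 against 1275 FPKM, and Tnnt3, 931 against 1646 FPKM). At day 0 the 7 adipocyte markers summed to 34.7 to 42.5 FPKM in control cells, 383 to 414 with NFIA and 298 to 316 with Δpro#3, nearly all of it Lpl. They summed to 331 to 369, 13432 to 14915 and 601 to 2007 FPKM at day 7 in the same order, and the Δpro#3 maximum was replicate 1. After forskolin the myotube sums were 11004 to 13057, 1713 to 2097 and 11867 to 12842 FPKM, and the adipocyte sums 289 to 299, 12908 to 13623 and 531 to 887 FPKM. The 5 myoblast markers, led by Des, summed to 653 to 661 FPKM in control cells, 147 to 156 with NFIA and 425 to 437 with Δpro#3 at day 0. At day 7 they summed to 725 to 830, 259 to 327 and 1037 to 1165 FPKM in that order, and after forskolin to 696 to 784, 198 to 245 and 933 to 1056 FPKM. Most of each sum was Des, and Myod1 was lower in Δpro#3 than in control cells at day 7 (41.4 against 73.2 FPKM), where 3 of the 5 were called higher and 1 lower. The 7 mural or smooth muscle markers, led by Acta2, summed to 1145 to 1192 FPKM in control, 844 to 902 in NFIA and 905 to 943 in Δpro#3 cells at day 0. In that order they summed to 1308 to 1394, 487 to 679 and 1314 to 1382 FPKM at day 7, and to 880 to 996, 342 to 504 and 961 to 1190 FPKM after forskolin. Of 5 tested, 2 were called higher and 2 lower for NFIA against control at day 7, and 2 higher and 3 lower after forskolin. The 4 macrophage markers found summed to 8.10 to 32.1 FPKM, through Cd14 and Cd68, and after forskolin to 24.9 to 32.1 in control, 15.2 to 16.8 in NFIA and 21.3 to 25.5 in Δpro#3 cells. The part of these marker differences in the results below was not tested.

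By group mean, Notch2 and Notch3 were the leading receptors in control and Δpro#3 cells, and Notch2 and Notch1 in NFIA cells, at all 3 time points. In control cells at day 0, summed receptor level was 103 ± 6.17 FPKM (SD, n = 3), of which Notch3 made up 46.4% ± 0.403, Notch2 43.2% ± 0.611 and Notch1 10.4% ± 0.216. NFIA cells had a receptor sum of 55.8 ± 2.02 FPKM and Δpro#3 cells of 64.0 ± 2.13. The share of Notch1 was 34.0% ± 0.0877 with NFIA at day 0, 35.2% ± 0.826 at day 7 and 32.3% ± 1.24 after forskolin. In control and Δpro#3 cells it lay between 5.46% and 12.1% at all 3 time points. The ligands were reordered too. Jag2 held 61.7% ± 0.399 of the ligand sum of control cells at day 0, and Jag1 63.2% ± 2.29 of that of NFIA cells. At day 7 Jag1 held 57.4% ± 4.37 of the ligand sum of NFIA cells, 25.7% ± 2.12 of that of control cells and 23.0% ± 2.99 of that of Δpro#3 cells. These are shares of RNA in a bulk sample, in which fewer cells of a type and less RNA per cell cannot be told apart.

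**Figure D1:**
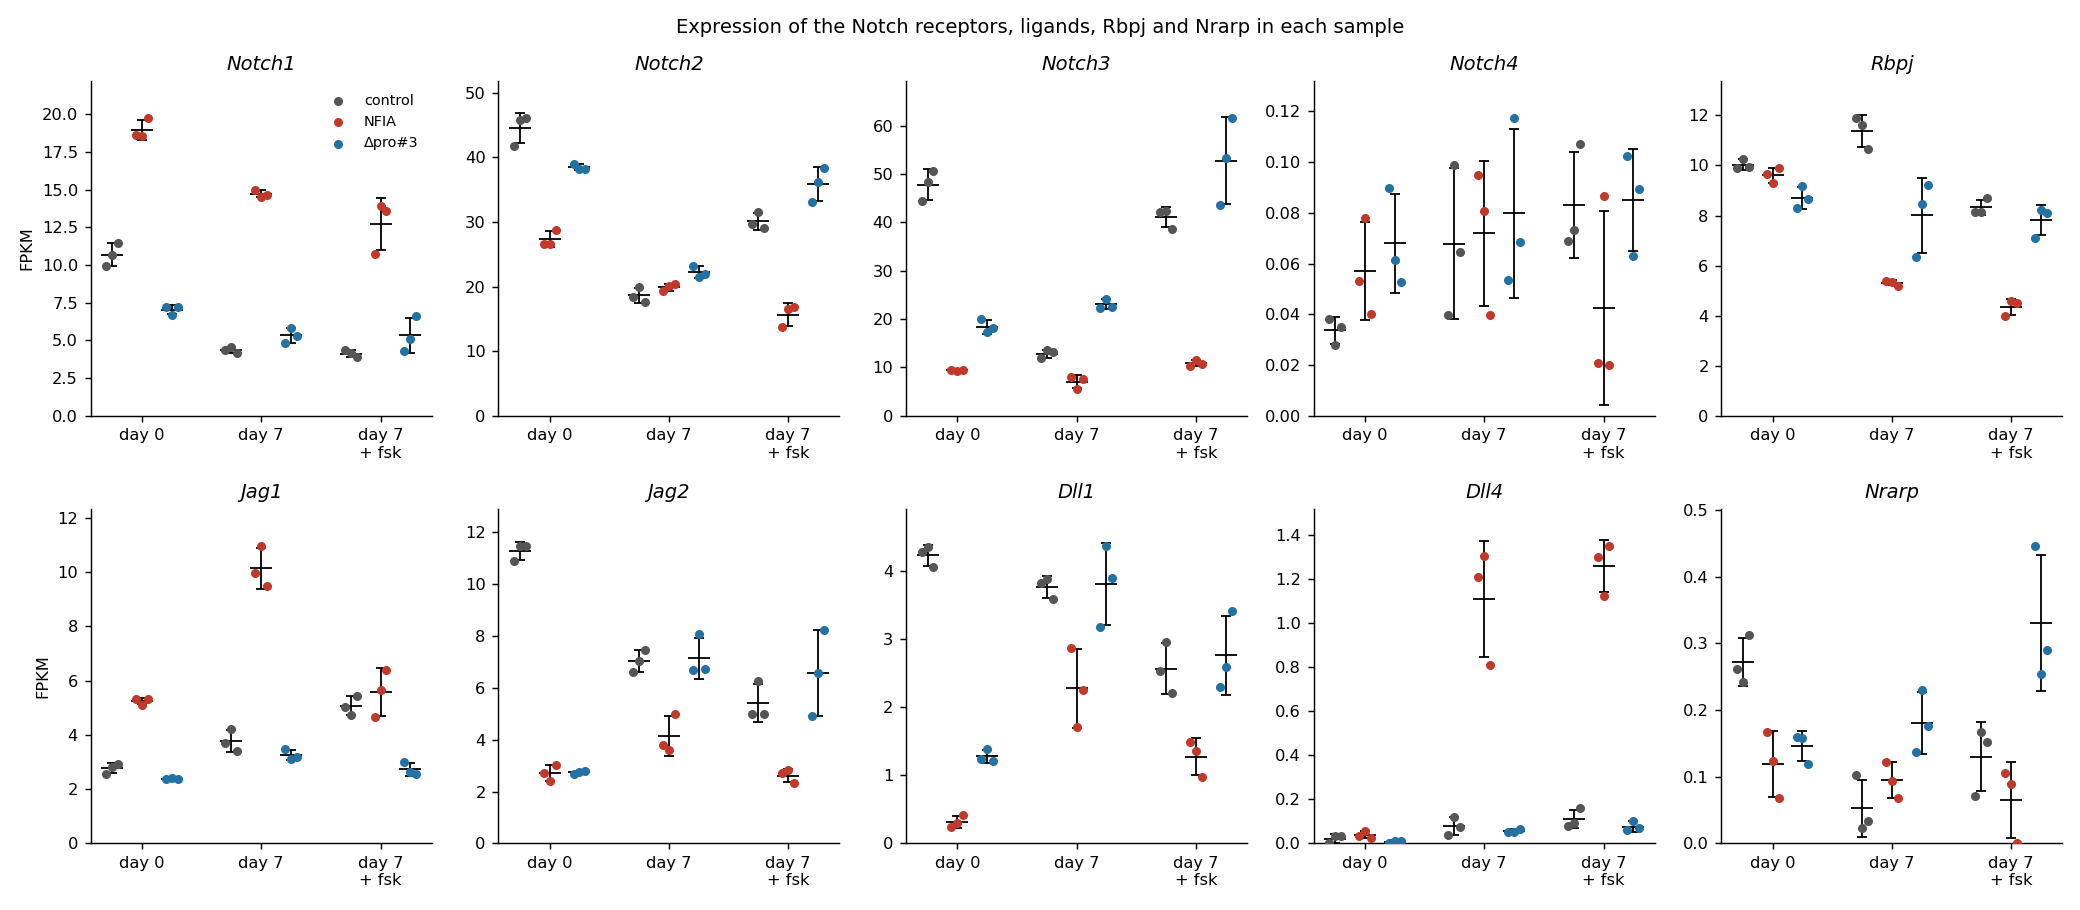
FPKM of the 10 members in each of the 27 samples, by time point on the x axis and construct by colour, with the mean and SD of 3 samples in black (each panel has its own y scale from 0). Notch1 of NFIA cells sits at 10.7 to 19.7 FPKM, and Dll4 is above 0.8 FPKM only in NFIA cells at day 7 and after forskolin.

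**Figure D2:**
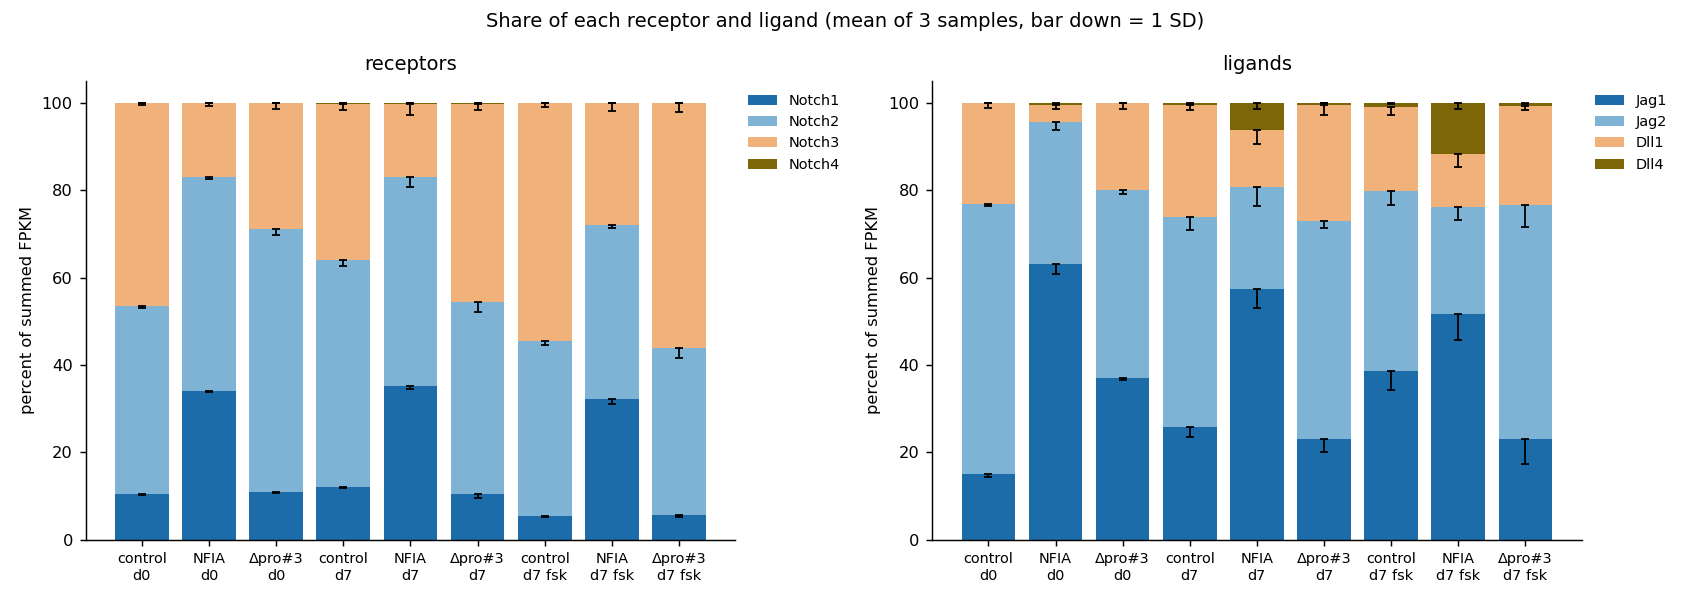
Share of each receptor in the summed receptor FPKM (left) and of each ligand in the summed ligand FPKM (right) for the 9 groups, as means of 3 samples with 1 SD drawn downward. Notch1 takes 32.3% to 35.2% of the receptor sum in the 3 NFIA groups, and Jag1 more of the ligand sum in each NFIA group than in the other groups of its time point.

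Before differentiation (day 0), the comparison asks how cells with each NFIA form differ from control. Notch1 and Jag1 rose in NFIA cells while Notch2, Notch3, Dll1 and Jag2 fell, and Rbpj did not pass the test. Notch3, Dll1 and Jag2 fell in Δpro#3 cells too, and neither Notch1 nor Jag1 rose there. A gene was called at a limma adjusted p under 0.05 with a change over 1.5-fold in FPKM + 1. For NFIA against control 6 members were called, 2 higher and 4 lower of 7 tested, against 13.4% of 12105 genes called higher and 11.0% called lower. For Δpro#3 against control 3 were called lower (all genes, 7.26% higher and 6.73% lower). For Δpro#3 against NFIA, 2 were higher and 2 lower (all genes, 6.96% and 8.66%). The median log2 change of the 7 members was -0.68 for NFIA and -0.54 for Δpro#3, and that of all genes was 0.0083 and 0.0095.

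Notch3 carried the largest receptor difference at day 0. It was at 44.4, 48.3 and 50.7 FPKM in the control samples, 9.56, 9.19 and 9.51 in the NFIA samples and 20.0, 17.2 and 18.1 in the Δpro#3 samples. The 3 groups did not overlap, with Δpro#3 between the other two. The log2 change in FPKM + 1 was -2.23 (SE 0.058, adjusted p = 7.47e-11) for NFIA, -1.33 (SE 0.058, adjusted p = 1.05e-08) for Δpro#3 and 0.90 (SE 0.058, adjusted p = 2.05e-07) for Δpro#3 against NFIA. Notch1 went the other way with the full-length form. Its samples were at 9.95, 10.6 and 11.5 FPKM in control, 18.6, 18.5 and 19.7 in NFIA and 7.22, 6.68 and 7.20 in Δpro#3 cells, so that NFIA was highest and Δpro#3 lowest without overlap. The log2 change was 0.77 (SE 0.052, adjusted p = 1.54e-07) for NFIA. For Δpro#3 it was -0.54 (SE 0.052, adjusted p = 5.72e-06), which missed the 1.5-fold limit. It was past that limit with a pseudocount of 0.1 (-0.59) and with limma-voom on fragments (-0.60). Notch2 was at 41.8, 45.8 and 46.1 FPKM in control, 26.6, 26.6 and 28.8 in NFIA and 39.0, 38.2 and 38.2 in Δpro#3 cells. It fell by 0.68 on the log2 scale with NFIA (adjusted p = 9.94e-08), and its log2 change with Δpro#3 was -0.20 (adjusted p = 0.00195).

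Among the ligands at day 0, Jag2 had a change of similar size with both forms. It was at 10.9, 11.5 and 11.5 FPKM in control, 2.70, 2.41 and 3.03 in NFIA and 2.69, 2.77 and 2.80 in Δpro#3 cells. Its log2 change was -1.73 (SE 0.058, adjusted p = 5.69e-10) for NFIA and -1.71 (SE 0.058, adjusted p = 1.58e-09) for Δpro#3. The difference between both forms was 0.017, with a 95% interval of -0.11 to 0.15. Dll1, which encodes a Delta ligand, was at 4.27, 4.35 and 4.05 FPKM in control, 0.239, 0.301 and 0.412 in NFIA and 1.24, 1.39 and 1.20 in Δpro#3 cells. All 3 groups stood apart, and the log2 change was -1.99 (SE 0.064, adjusted p = 3.85e-10) for NFIA and -1.20 (SE 0.064, adjusted p = 5.22e-08) for Δpro#3. The added 1 FPKM compresses changes of low genes, and with a pseudocount of 0.1 these changes were -3.39 and -1.65, and with limma-voom on fragments -3.82 and -1.72. Jag1 was at 2.56, 2.83 and 2.92 FPKM in control, 5.32, 5.12 and 5.32 in NFIA and 2.38, 2.39 and 2.38 in Δpro#3 cells. It rose by 0.73 with NFIA (SE 0.048, adjusted p = 1.29e-07), and its log2 change with Δpro#3 was -0.15 (adjusted p = 0.0162). Rbpj, the DNA-binding partner of the cut receptor, was at 9.89, 10.3 and 9.94 FPKM in control, 9.64, 9.29 and 9.89 in NFIA and 8.32, 9.19 and 8.64 in Δpro#3 cells. Its log2 change was -0.057 (95% interval -0.15 to 0.036) for NFIA and -0.18 (-0.28 to -0.091) for Δpro#3.

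**Figure D3:**
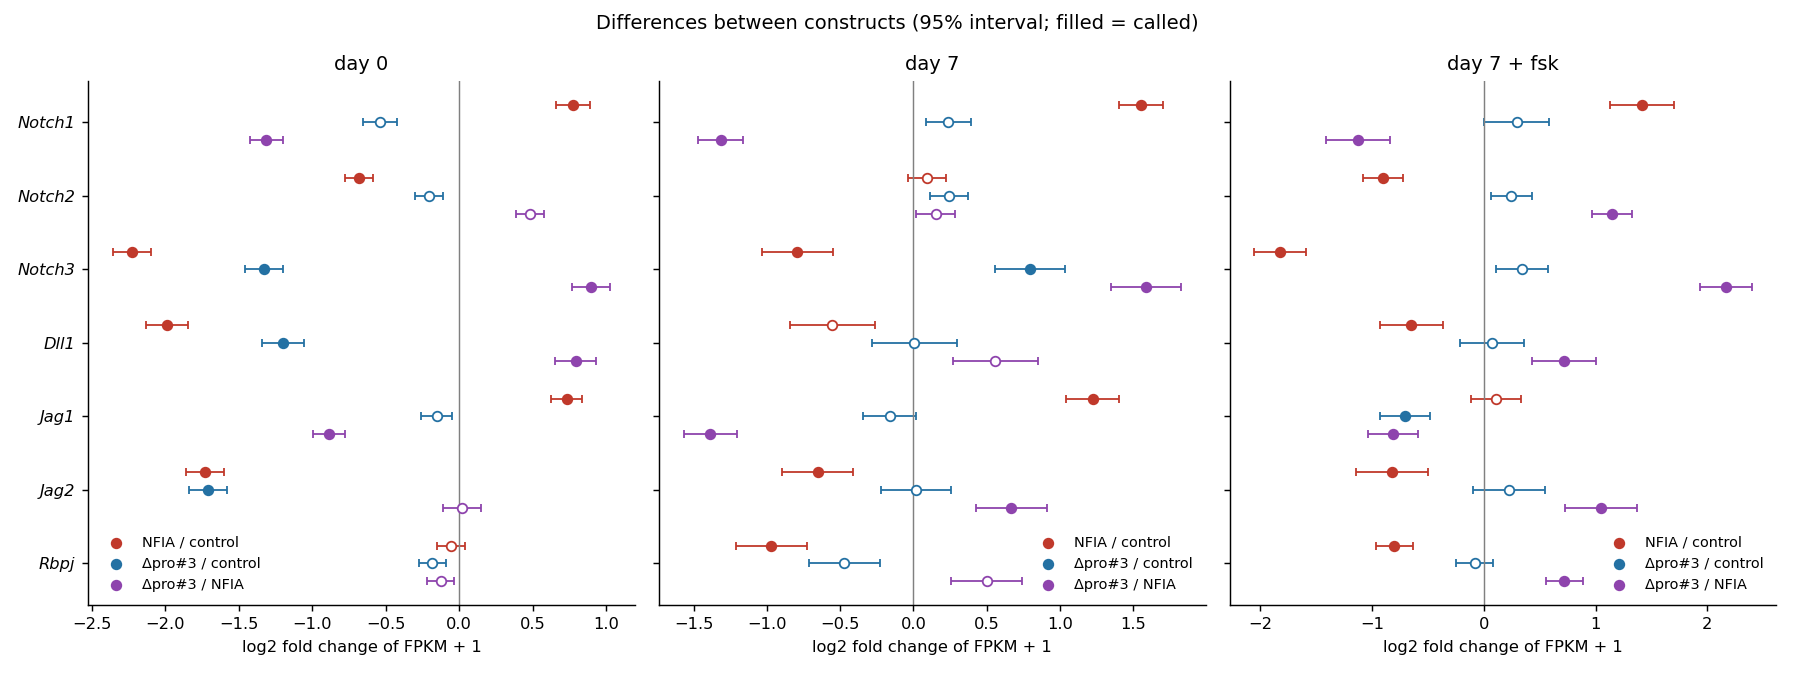
Log2 fold change of FPKM + 1 (x axis) of the 7 tested members in the 3 comparisons between constructs, at each time point, with 95% intervals from limma (filled points were called). Notch1 of NFIA against control lies to the right at all 3 time points (0.77, 1.56 and 1.42), and Notch3 to the left (-2.23, -0.79 and -1.82).

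At day 7, the comparison asks what remains of these differences once the cells have been through differentiation. Notch1 and Jag1 were again higher with NFIA, Notch3 and Jag2 fell, and Rbpj now fell as well. Between Δpro#3 and control cells Notch3 was the 1 called member of the 7 tested, and it was higher. For NFIA against control 5 members were called, 2 higher and 3 lower (all 12324 genes, 16.8% higher and 18.8% lower), and 1 higher for Δpro#3 against control (all genes, 6.94% higher and 5.79% lower). For Δpro#3 against NFIA, 2 were higher and 2 lower (all genes, 12.8% and 13.3%). The median log2 change of the 7 was -0.55 for NFIA and 0.017 for Δpro#3, beside -0.080 and -0.037 for all genes. With median-ratio scaling of the samples, the share of called genes that were higher went from 47.2% to 55.9% for NFIA against control. Short of the 1.5-fold limit for Δpro#3 against NFIA were Dll1 (0.56) and Rbpj (0.50), and limma-voom called both (0.89 and 0.60), as did leaving out Δpro#3 replicate 1 (0.66 and 0.64). Dll1 was called there also with a pseudocount of 0.1 (0.73) and without NFIA replicate 1 (0.69).

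Notch1 at day 7 was at 4.33, 4.55 and 4.16 FPKM in control, 15.0, 14.5 and 14.7 in NFIA and 4.84, 5.81 and 5.31 in Δpro#3 cells. NFIA samples stood far above both others, with a log2 change of 1.56 (SE 0.068, adjusted p = 1.59e-08), while that of Δpro#3 was 0.24 (95% interval 0.087 to 0.39). Jag1 was likewise highest in NFIA cells, at 3.70, 4.20 and 3.40 FPKM in control, 9.95, 11.0 and 9.48 in NFIA and 3.46, 3.10 and 3.20 in Δpro#3 cells. It rose by 1.22 with NFIA (SE 0.081, adjusted p = 3.43e-07), and Δpro#3 differed from control by -0.16 (95% interval -0.34 to 0.020). Notch3 was at 11.9, 13.6 and 13.1 FPKM in control, 8.03, 5.59 and 7.58 in NFIA and 22.3, 24.2 and 22.6 in Δpro#3 cells. It was the member in which both forms moved in opposite directions, by -0.79 (SE 0.11, adjusted p = 7.46e-05) with NFIA and by 0.80 (SE 0.11, adjusted p = 0.000235) with Δpro#3.

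Notch2 levels were close to each other at day 7, at 18.4, 19.9 and 17.6 FPKM in control, 19.3, 20.1 and 20.4 in NFIA and 23.3, 21.4 and 22.0 in Δpro#3 cells. Its NFIA change was 0.092 (95% interval -0.040 to 0.22). The Δpro#3 samples of Notch2 lay above all others, by 0.24 against control (adjusted p = 0.00693) and 0.15 against NFIA (adjusted p = 0.0455). Both were short of the 1.5-fold limit. Jag2 was at 6.62, 7.02 and 7.47 FPKM in control, 3.82, 3.60 and 5.01 in NFIA and 6.67, 8.06 and 6.71 in Δpro#3 cells. It fell by 0.65 with NFIA (SE 0.11, adjusted p = 0.000314), and the control and Δpro#3 samples overlapped. Leaving out NFIA replicate 2 brought this change to -0.58 and under the 1.5-fold limit, as median-ratio scaling did (-0.56). Dll1 was at 3.81, 3.88 and 3.58 FPKM in control, 2.87, 1.71 and 2.25 in NFIA and 3.17, 4.36 and 3.89 in Δpro#3 cells. Its change with NFIA was -0.55 (SE 0.13, adjusted p = 0.00313), short of the 1.5-fold limit. It was called without NFIA replicate 1 (-0.68), with a pseudocount of 0.1 (-0.73) and with limma-voom on fragments (-0.85). Rbpj was at 11.9, 11.6 and 10.6 FPKM in control, 5.39, 5.34 and 5.19 in NFIA and 6.33, 8.46 and 9.23 in Δpro#3 cells. It fell by 0.97 with NFIA (SE 0.11, adjusted p = 1.76e-05), and its log2 change was -0.47 (SE 0.11, adjusted p = 0.00523) with Δpro#3.

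After forskolin, the comparison asks how the constructs differ under raised cyclic AMP. As at the other time points, rises and falls with a form are differences from control cells of the same time point. Notch1 remained high in NFIA cells, and Jag1 no longer differed by the test between NFIA and control cells. Notch2, Notch3, Dll1, Jag2 and Rbpj were all lower in NFIA than in control cells. Jag1 was lower in Δpro#3 than in control cells, and no other tested member was called there. For NFIA against control 6 members were called, 1 higher and 5 lower (all 12121 genes, 13.5% higher and 21.0% lower). For Δpro#3 against control 1 was lower (all genes, 6.40% higher and 6.39% lower), and for Δpro#3 against NFIA all 7 were called, 5 higher and 2 lower (all genes, 15.8% and 11.4%). All genes had a median log2 change of -0.17 for NFIA against control and 0.13 for Δpro#3 against NFIA here, and of -0.0076 and 0.0085 after median-ratio scaling, so member changes of this size are relative to that shift. The median of the 7 members was -0.80 and 0.72 before scaling. Scaling turned the split of all called genes from 39.1% to 54.5% higher for NFIA against control and from 58.2% to 46.4% for Δpro#3 against NFIA.

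Among the 7 tested members, Notch3 again had the widest spread between constructs after forskolin on the log2(FPKM + 1) scale. It was at 42.2, 42.3 and 38.7 FPKM in control, 10.3, 11.6 and 10.8 in NFIA and 43.5, 53.3 and 61.6 in Δpro#3 cells. NFIA samples were below all others, with a log2 change of -1.82 (SE 0.10, adjusted p = 5.33e-08), and Δpro#3 differed from control by 0.34 (95% interval 0.11 to 0.58). Notch2 had the same order, at 29.6, 31.5 and 29.1 FPKM in control, 13.7, 16.6 and 16.8 in NFIA and 33.0, 36.2 and 38.3 in Δpro#3 cells, and fell by 0.90 with NFIA (SE 0.082, adjusted p = 2.36e-06). Notch1 was at 4.34, 4.13 and 3.87 FPKM in control, 10.7, 13.9 and 13.6 in NFIA and 4.30, 5.10 and 6.60 in Δpro#3 cells, a change of 1.42 with NFIA (SE 0.13, adjusted p = 2.42e-06). The control and Δpro#3 samples of Notch1 overlapped.

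Jag1 after forskolin was at 5.04, 4.74 and 5.44 FPKM in control, 4.64, 5.66 and 6.40 in NFIA and 2.99, 2.62 and 2.57 in Δpro#3 cells. Here the Δpro#3 samples stood below both other groups, by -0.70 against control (SE 0.10, adjusted p = 0.000236), and the NFIA and control samples overlapped (0.11, 95% interval -0.12 to 0.33). Jag2 was at 5.0, 6.25 and 4.99 FPKM in control, 2.71, 2.82 and 2.32 in NFIA and 4.90, 6.58 and 8.23 in Δpro#3 cells, and fell by 0.82 with NFIA (SE 0.15, adjusted p = 0.000398). Dll1 was at 2.52, 2.95 and 2.20 FPKM in control, 1.49, 1.35 and 0.978 in NFIA and 2.29, 2.58 and 3.40 in Δpro#3 cells. Its fall of -0.65 with NFIA (SE 0.13, adjusted p = 0.000922) dropped below the 1.5-fold limit without NFIA replicate 3 (-0.55), without control replicate 2 (-0.57) and with scaling (-0.53), and was -1.03 with limma-voom. Rbpj was at 8.13, 8.16 and 8.68 FPKM in control, 3.97, 4.57 and 4.51 in NFIA and 7.12, 8.23 and 8.11 in Δpro#3 cells. It fell by 0.80 with NFIA (SE 0.074, adjusted p = 2.71e-06).

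Notch4, Dll4 and Nrarp had a mean under 0.5 FPKM in every fit without a sample left out and were not tested in it. With a sample left out after forskolin, Dll4 could pass that filter. Dll4 separated the groups even so. It was at 1.21, 1.31 and 0.812 FPKM in NFIA cells at day 7 and at 1.30, 1.13 and 1.35 after forskolin, from 165 and 205 fragments in all. The 7 other groups had means of 0.00765 to 0.111 FPKM, from 2 to 19 fragments per group. At day 7 the NFIA mean was 14.3 times the control mean (0.0776 ± 0.0413 FPKM, 12 fragments), and after forskolin 11.4 times (0.111 ± 0.0429 FPKM, 19 fragments). The samples did not overlap, and the exact permutation test gave p = 0.1, two-sided, the smallest that 3 against 3 samples allow. With no filter on low values, limma gave Dll4 a log2 change in FPKM + 1 of 0.96 (SE 0.082, adjusted p = 1.44e-05) at day 7 and 1.02 (SE 0.047, adjusted p = 3.35e-07) after forskolin, and of -0.028 and -0.044 for Δpro#3 against control. The 7 endothelial markers summed to 0.184 to 1.44 FPKM over all samples. In NFIA cells at day 7 they summed to 0.413 to 0.684 FPKM, with Tie1 at 0. The sums there were 0.235 to 0.287 FPKM in control and 0.612 to 0.728 in Δpro#3 cells. After forskolin the sum in NFIA cells was 1.23 to 1.44 FPKM, most of it Kdr (1.17 FPKM). It was 0.184 to 0.194 in control and 0.664 to 0.831 in Δpro#3 cells.

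Notch4 stayed at or under 0.117 FPKM in every sample, from 14 to 32 fragments per group, and each group overlapped the next in the order of level. At day 0 its control samples lay below those of both forms (exact permutation p = 0.1 for each, two-sided). Nrarp, whose product blocks the assembly of the Notch complex on DNA, was at 0 to 0.446 FPKM. At day 0 it was at 0.262, 0.242 and 0.312 FPKM in control, 0.167, 0.123 and 0.0686 in NFIA and 0.160, 0.158 and 0.120 in Δpro#3 cells, from 54, 21 and 27 fragments. Control samples were above all others (exact permutation p = 0.1 for each form, two-sided). At day 7 Δpro#3 samples were above control instead, at 0.137, 0.230 and 0.175 FPKM from 25 fragments, against 0.102, 0.0231 and 0.0331 from 6 fragments (exact permutation p = 0.1, two-sided). After forskolin Δpro#3 cells were highest, at 0.446, 0.254 and 0.291 FPKM, and control cells were at 0.0707, 0.167 and 0.153. None of these Nrarp differences reached 1.5-fold in FPKM + 1, a scale that compresses such low values.

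From day 0 to day 7, the comparison asks how the members change with differentiation in each kind of cell and whether that change differs between them. By the calls, control cells lost Notch1, Notch2, Notch3 and Jag2. NFIA cells gained Dll1 and Jag1 and lost Rbpj, and Δpro#3 cells gained Dll1 and Jag2 and lost Notch2. Short of the 1.5-fold limit, NFIA cells had lower Notch1 (-0.34, adjusted p = 4.99e-05), Notch2 (-0.44, adjusted p = 5.73e-07) and Notch3 (-0.38, adjusted p = 0.00115). Likewise short of it, Δpro#3 cells had lower Notch1 (-0.35, adjusted p = 4.49e-05) and higher Notch3 (0.31, adjusted p = 0.00588). In control cells 4 members were lower and 0 higher (all 12408 genes, 17.9% higher and 21.7% lower). In NFIA cells 2 were higher and 1 lower (all genes, 16.8% and 22.2%), and in Δpro#3 cells 2 were higher and 1 lower (all genes, 15.4% and 21.7%). With scaling the shares of called genes that were higher went from 43.0% to 53.7% in NFIA cells and from 41.5% to 52.7% in Δpro#3 cells.

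In control cells, the mean of Notch3 went from 47.8 ± 3.16 to 12.9 ± 0.833 FPKM, a log2 change of -1.82 (SE 0.092, adjusted p = 1.32e-11). Notch2 went from 44.5 ± 2.37 to 18.6 ± 1.21 FPKM (log2 change -1.22, adjusted p = 1.39e-12) and Notch1 from 10.7 ± 0.756 to 4.35 ± 0.193 FPKM (-1.13, adjusted p = 2.27e-11). All samples of day 7 lay below those of day 0. Jag2 fell by 0.61 (adjusted p = 9.37e-06), and this call was lost without control replicate 1 of day 7 (-0.57) and with scaling (-0.55). Dll1 rose in both kinds of cells with an NFIA form, from 0.317 ± 0.0878 to 2.28 ± 0.577 FPKM with NFIA (log2 change 1.30, SE 0.11, adjusted p = 6.03e-09) and from 1.28 ± 0.0979 to 3.81 ± 0.598 FPKM with Δpro#3 (1.07, SE 0.11, adjusted p = 8.33e-08). With a pseudocount of 0.1 these rises were 2.5 and 1.5, and with limma-voom 2.81 and 1.61. Its change in control cells was -0.13 (95% interval -0.36 to 0.092). Jag1 rose by 0.83 in NFIA cells (SE 0.065, adjusted p = 3.35e-09) and had a log2 change of 0.34 in control and 0.33 in Δpro#3 cells. Jag2 in NFIA cells had one of 0.46, which limma-voom put at 0.60 and called. Rbpj fell by 0.75 in NFIA cells (SE 0.086, adjusted p = 4.73e-07), with changes of 0.17 in control and -0.12 in Δpro#3 cells.

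The changes over time themselves differed between cells. Against control, 6 members were called in the difference for NFIA, 5 higher and 1 lower (all genes, 16.9% and 20.5%), and 4 for Δpro#3, all higher (all genes, 7.82% higher and 6.98% lower). Since the control samples of both time points enter each, the estimates share them. For Notch1, Notch2 and Notch3 with NFIA, a higher difference was a smaller fall than in control cells. Their changes over time were -0.34, -0.44 and -0.38 with NFIA and -1.13, -1.22 and -1.82 in control cells. With Δpro#3, Notch1 likewise fell less (-0.35), while the change of Notch3 was 0.31. Notch3 had a difference of 1.43 (SE 0.13, adjusted p = 4.52e-08) for NFIA and 2.12 (SE 0.13, adjusted p = 1.81e-09) for Δpro#3. Dll1 had 1.44 and 1.21, Jag2 1.07 and 1.73, and Notch1 0.78 and 0.78. For Dll1 with NFIA the difference was 2.66 with a pseudocount of 0.1 and 2.97 with limma-voom. For Notch2 the difference was 0.78 (adjusted p = 6.50e-08) with NFIA and 0.45 (adjusted p = 0.000100) with Δpro#3, the latter short of the 1.5-fold limit. Rbpj was the member whose difference was lower, by -0.91 with NFIA (SE 0.12, adjusted p = 4.32e-06).

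**Figure D4:**
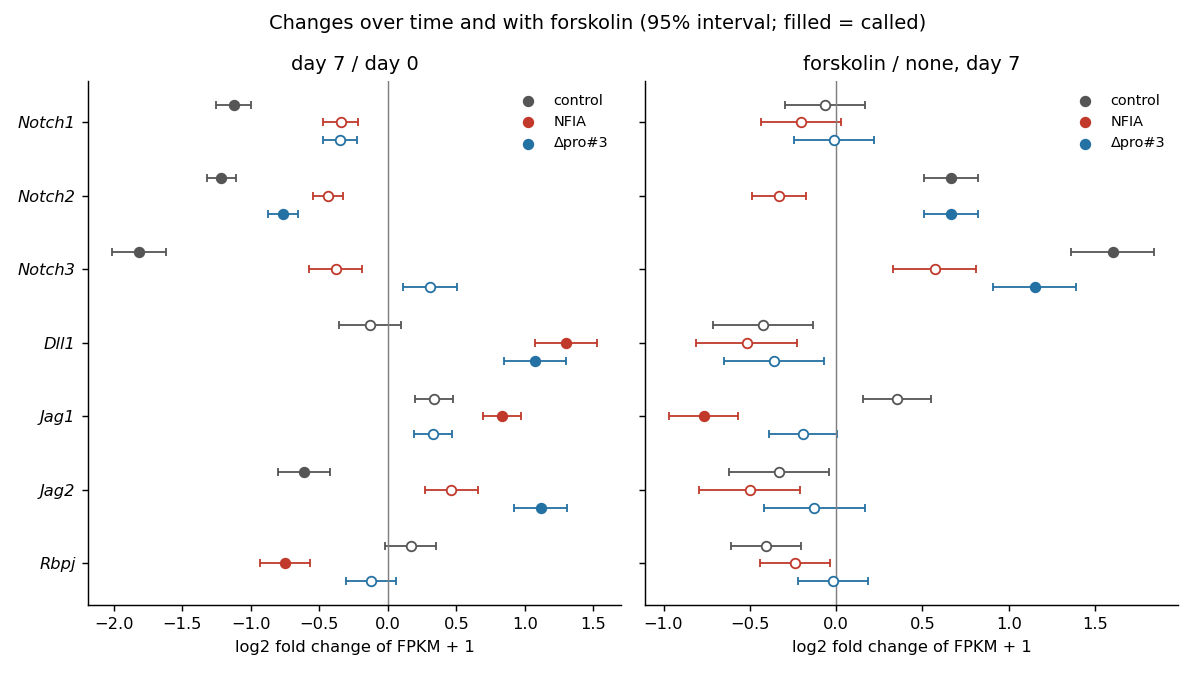
Log2 fold change of FPKM + 1 (x axis) of the 7 tested members from day 0 to day 7 (left) and with forskolin at day 7 (right), by construct, with 95% intervals from limma (filled points were called). Notch3 of control cells lies at -1.82 over time and at 1.60 with forskolin, and Jag1 of NFIA cells at -0.77 with forskolin.

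With forskolin at day 7, the comparison asks which members respond to raised cyclic AMP within hours. Notch3 and Notch2 rose in control and in Δpro#3 cells, and neither was called in NFIA cells, where Jag1 fell. In control cells 2 members were higher and 0 lower (all 12245 genes, 2.20% higher and 1.94% lower). In NFIA cells 1 was lower and 0 higher (all genes, 3.96% higher and 9.56% lower), and in Δpro#3 cells 2 were higher and 0 lower (all genes, 3.32% and 4.12%). With scaling the share of called genes that were higher went from 29.3% to 49.1% in NFIA cells.

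Notch3 went from 12.9 ± 0.833 to 41.0 ± 2.05 FPKM in control cells, a log2 change of 1.60 (SE 0.11, adjusted p = 3.82e-08), and from 23.0 ± 1.03 to 52.8 ± 9.03 FPKM in Δpro#3 cells (1.15, SE 0.11, adjusted p = 9.61e-07). In NFIA cells it went from 7.07 ± 1.30 to 10.9 ± 0.632 FPKM. That log2 change of 0.57 (SE 0.11, adjusted p = 0.000465) was under the 1.5-fold limit. It was over it with scaling (0.70), a pseudocount of 0.1 (0.63) and limma-voom on fragments (0.67), and without NFIA replicate 1 (0.66) or 3 (0.62) of day 7 or NFIA replicate 1 of forskolin (0.61). Notch2 rose by 0.66 in control (SE 0.073, adjusted p = 5.74e-06) and by 0.66 in Δpro#3 cells (adjusted p = 3.24e-06), and its change was -0.33 in NFIA cells (adjusted p = 0.00113). Jag1 fell by 0.77 in NFIA cells (SE 0.093, adjusted p = 3.80e-06), from 10.1 ± 0.754 to 5.57 ± 0.885 FPKM. In control cells its log2 change was 0.35 (adjusted p = 0.0127). Dll1 and Jag2 in NFIA cells had log2 changes of -0.52 and -0.50, under the 1.5-fold limit, and both were called with a pseudocount of 0.1 (-0.78 and -0.63) and with limma-voom (-0.74 and -0.62). Dll1 was also called without NFIA replicate 2 of day 7 (-0.65) or NFIA replicate 1 of forskolin (-0.59). The same log2 changes of Dll1 and Jag2 were -0.42 and -0.33 in control and -0.36 and -0.13 in Δpro#3 cells. By limma the NFIA response differed from control by -0.095 for Dll1 (adjusted p = 0.755) and by -0.17 for Jag2 (adjusted p = 0.548).

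These responses differed from control for 3 members with NFIA, all lower (all genes, 3.28% higher and 6.74% lower). The difference was -1.12 for Jag1 (SE 0.13, adjusted p = 1.05e-05), -1.03 for Notch3 (SE 0.16, adjusted p = 0.000161) and -1.0 for Notch2 (SE 0.10, adjusted p = 3.23e-06). With scaling the share of higher among called differences of all genes went from 32.8% to 44.9%. For Δpro#3, limma called 0 members (all genes, 1.11% higher and 1.22% lower). Two-sided unadjusted p under 0.05 was reached by Jag1 (log2 difference -0.54, adjusted p = 0.0238), Notch3 (-0.45, adjusted p = 0.124) and Rbpj (0.39, adjusted p = 0.114). A pseudocount of 0.1 and limma-voom each called Jag1 (-0.67 in both). Leaving out control replicate 2 of day 7 or Δpro#3 replicate 1 of forskolin also called it (-0.61 and -0.59).

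The levels of most members had an order over the 9 groups that held in part beyond the spread. Notch1 was highest in the 3 NFIA groups, and the samples of the third of them, NFIA with forskolin, overlapped those of control at day 0. Control at day 7 and control with forskolin were lowest for Notch1 and overlapped. Notch3 was highest in Δpro#3 cells with forskolin, which overlapped control at day 0, and lowest in the 3 NFIA groups, which did not overlap each other. Jag1 was highest in NFIA cells at day 7 without overlap, and Jag2 and Dll1 in control cells at day 0, where Dll1 overlapped Δpro#3 at day 7. Rbpj was highest in control cells at day 7 and lowest in NFIA cells at day 7 and with forskolin, and these 3 groups did not overlap their neighbours.

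Of the 55 other pathway genes listed, 48 were tested at some time point, and 27 of these (56.2%) were called in at least 1 of the 9 comparisons between constructs, near the 58.2% of all genes tested. For NFIA against control, 5 of 46 tested were higher and 6 lower at day 0, 8 and 10 at day 7, and 4 and 12 after forskolin. These were 23.9%, 39.1% and 34.8% of those tested, beside 24.5%, 35.5% and 34.5% of all genes. Against control, Δpro#3 cells had 3 higher and 6 lower, 3 and 2, and 3 and 3 (19.6%, 10.9% and 13% of 46, beside 14.0%, 12.7% and 12.8% of all genes). Between both forms 12, 11 and 14 were called (26.1%, 23.9% and 30.4%, beside 15.6%, 26.1% and 27.2% of all genes). Over time, 4 of 47 tested were higher and 18 lower in control, 6 and 12 in NFIA and 6 and 14 in Δpro#3 cells (46.8%, 38.3% and 42.6%, beside 39.6%, 38.9% and 37.1% of all genes). With forskolin, 3 of 46 were higher and 2 lower in control, 0 and 5 in NFIA and 2 and 2 in Δpro#3 cells (10.9%, 10.9% and 8.7%, beside 4.14%, 13.5% and 7.43%). The counts by role below are over the same 9 comparisons between constructs, and the 58.2% of all genes stands beside each. Of 10 genes for receptor cleavage, 3 were called. Psen2, a catalytic subunit of γ-secretase, was at 9.95, 11.5 and 10.4 FPKM in control, 22.0, 21.9 and 21.6 in NFIA and 12.7, 10.7 and 9.76 in Δpro#3 cells at day 7, and rose by 0.98 with NFIA (adjusted p = 3.09e-06). At day 0 its NFIA samples lay below control, at 5.30 to 6.03 against 8.35 to 9.18 FPKM, a log2 change of -0.56 (adjusted p = 2.43e-06) that was under the 1.5-fold limit. Adam10 and Furin, the protease of the outer cut and the convertase that matures the receptor, were called between both forms after forskolin, higher in Δpro#3 by 1.18 and 0.78, and Adam10 also against control (0.61).

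Of 5 genes for receptor glycosylation, the 2 fringe genes Mfng and Lfng were called. Mfng (manic fringe) was at 56.9, 59.7 and 60.6 FPKM in NFIA cells at day 7, from 4525 fragments, and at 1.06, 0.149 and 0.462 FPKM in Δpro#3 cells, from 22, 6 and 15 fragments. All 3 control libraries of day 7 had 0 fragments, as had all 3 NFIA libraries at day 0. Against a floor of 3 fragments per library, Mfng was at least 515-fold higher in NFIA than in control cells at day 7. After forskolin it was at 44.0, 44.5 and 38.5 FPKM in NFIA cells, and the 3 control libraries held 1 fragment. Lfng (lunatic fringe) was called higher with NFIA at all 3 time points. At day 0 it was at 7.31, 7.15 and 8.22 FPKM in control, 36.7, 37.4 and 35.0 in NFIA and 19.8, 19.0 and 20.1 in Δpro#3 cells, and the log2 change was 2.13 (adjusted p = 3.03e-11) for NFIA and 1.27 (adjusted p = 3.92e-09) for Δpro#3. At day 7 Lfng was at 2.01 ± 0.473 FPKM in control and 10.4 ± 0.394 in NFIA cells, a log2 change of 1.94 (adjusted p = 1.71e-07). Its change after forskolin was 1.27 (adjusted p = 4.04e-06). Rfng, Pofut1 and Poglut1 were called in no comparison between constructs.

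Of 7 target genes, 3 were tested (Hes1, Hey1 and Heyl), and each was called, but not in the same direction. Hes5 was listed at 0 in all 27 samples. Hes1 was at 22.5, 24.0 and 22.7 FPKM in control, 18.1, 16.6 and 16.8 in NFIA and 10.1, 9.45 and 9.33 in Δpro#3 cells at day 0. At day 7 it was at 2.76, 2.46 and 3.17 FPKM in control, 8.64, 10.4 and 11.0 in NFIA and 3.96, 4.68 and 5.06 in Δpro#3 cells. The NFIA samples were thus below control at day 0 and above it at day 7, where Hes1 rose by 1.54 (adjusted p = 5.83e-07). The log2 change of NFIA at day 0 was -0.41 and that of Δpro#3 -1.18 (adjusted p = 3.34e-09). After forskolin Hes1 was higher with NFIA as well, by 1.13 (adjusted p = 3.97e-07).

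Heyl was lower with NFIA at each time point. It was at 21.2, 20.6 and 21.8 FPKM in control, 2.51, 2.73 and 2.98 in NFIA and 3.98, 4.15 and 4.21 in Δpro#3 cells at day 0, with log2 changes of -2.57 (adjusted p = 9.18e-12) and -2.12 (adjusted p = 1.20e-10). Hey1 fell with NFIA at each time point as well, most after forskolin. There it was at 13.9, 13.6 and 15.8 FPKM in control, 1.27, 2.72 and 1.16 in NFIA and 4.78, 8.92 and 7.25 in Δpro#3 cells, with log2 changes of -2.55 (adjusted p = 1.48e-06) and -0.98 (adjusted p = 0.00408). With forskolin Hey1 rose by 1.35 and Heyl by 1.07 in control cells, and the response with NFIA differed by -1.81 (adjusted p = 0.000815) and -0.85 (adjusted p = 0.00136).

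**Figure D5:**
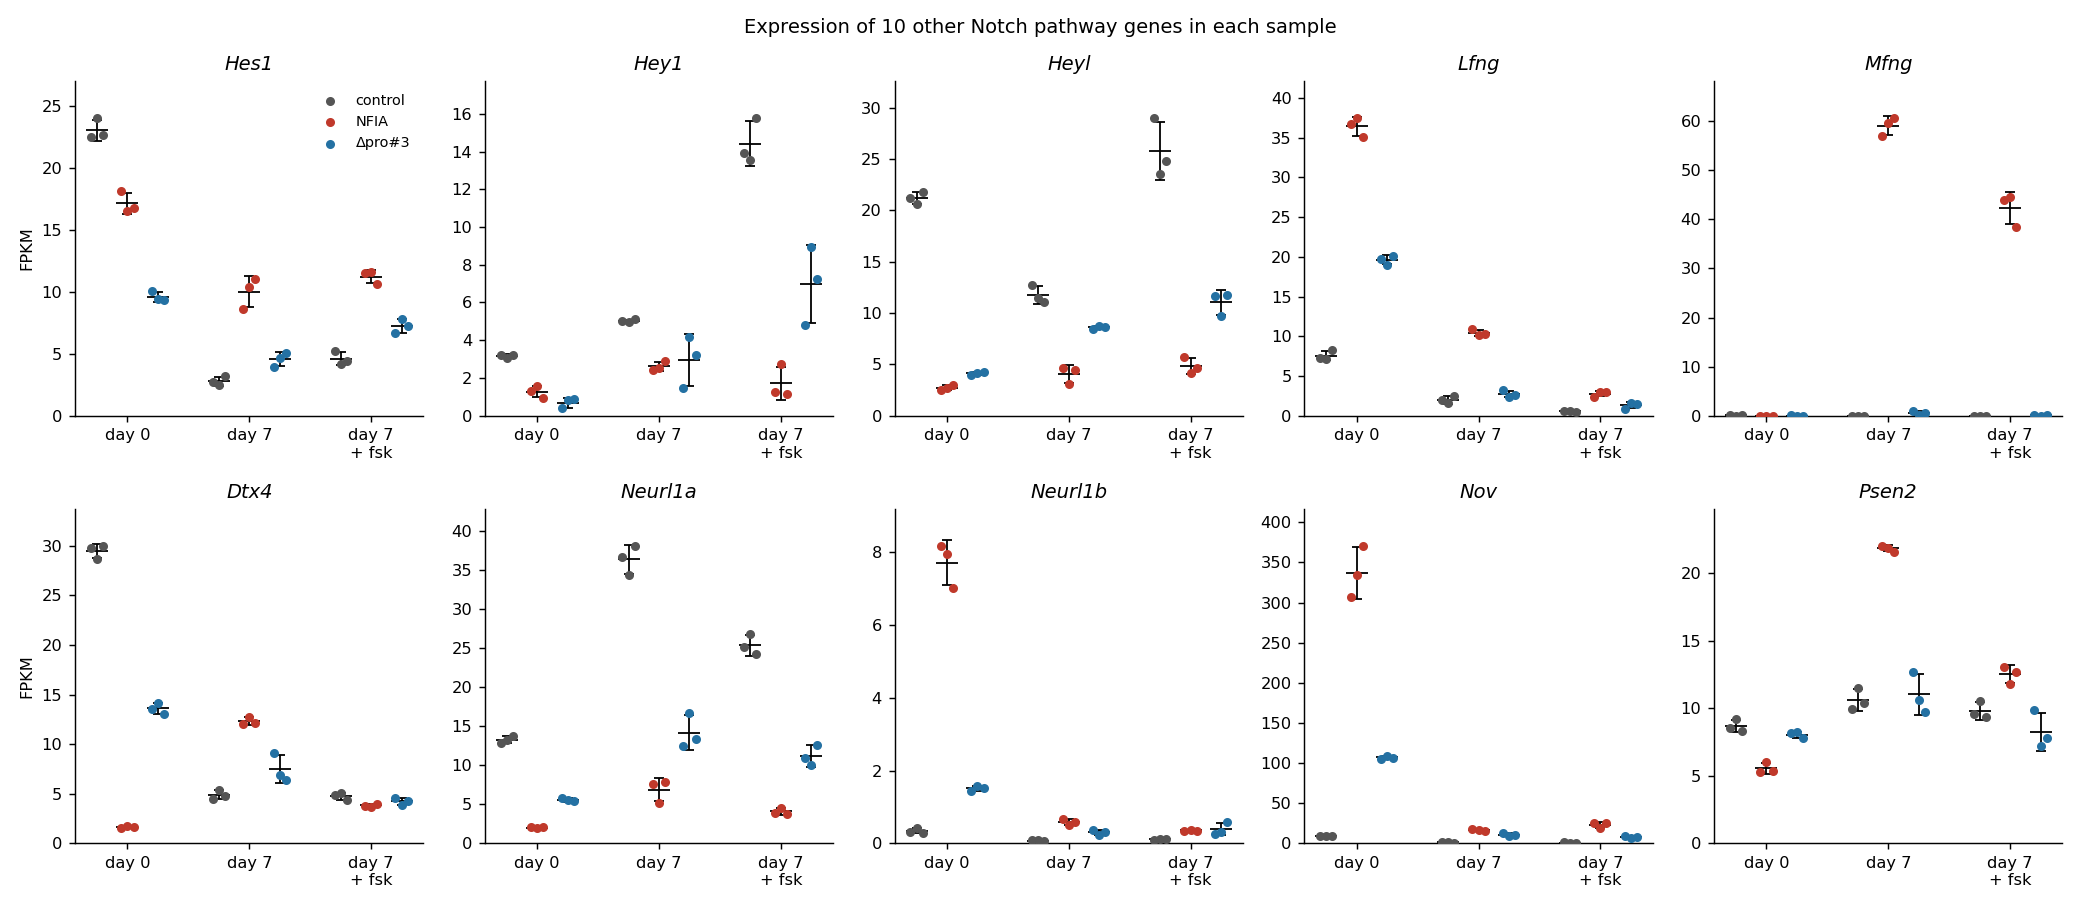
FPKM of 10 other pathway genes in each sample, by time point on the x axis and construct by colour, with the mean and SD of 3 samples in black (each panel has its own y scale from 0). Mfng is near 0 outside NFIA cells at day 7 and after forskolin, and Heyl of NFIA cells lies below control at each time point. The 10 genes were chosen after their values were seen.

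Of 13 genes for ligand endocytosis and receptor ubiquitination, all tested, 7 were called in at least 1 comparison (all genes, 58.2%). Neurl1a, a ubiquitin ligase of the Neuralized family, was at 12.8, 13.3 and 13.8 FPKM in control, 2.04, 2.01 and 2.04 in NFIA and 5.80, 5.55 and 5.37 in Δpro#3 cells at day 0. It was lower with both forms at all 3 time points, by -2.24, -2.26 and -2.37 with NFIA and by -1.12, -1.31 and -1.12 with Δpro#3. Its relative Neurl1b went the other way at day 0, at 0.327, 0.427 and 0.285 FPKM in control, 8.18, 7.95 and 7.02 in NFIA and 1.45, 1.59 and 1.52 in Δpro#3 cells (log2 changes 2.69 and 0.91). Dtx4, of the Deltex family, changed direction over time. It was at 29.7, 28.7 and 30.0 FPKM in control and 1.58, 1.72 and 1.70 in NFIA cells at day 0, and at 4.51, 5.41 and 4.76 in control and 12.1, 12.7 and 12.2 in NFIA cells at day 7. The log2 change with NFIA was -3.51 (adjusted p = 2.48e-13) at day 0 and 1.18 (adjusted p = 3.98e-06) at day 7, and the difference of its change over time was 4.70 (adjusted p = 1.02e-14). Dtx3 fell with NFIA at all 3 time points (-0.65, -0.80 and -0.99), Fbxw7 at day 7 and after forskolin (-0.88 and -0.70), Mib1 at day 7 (-0.74) and Epn2 after forskolin (-1.13).

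Of 14 cofactor genes, all tested, 9 were called in at least 1 comparison (all genes, 58.2%). For NFIA against control at day 0, 1 was called higher and 1 lower. The higher one, the Mastermind coactivator Maml2, rose by 1.10, from 3.12 ± 0.111 to 7.88 ± 0.711 FPKM. Snw1 was lower with NFIA at day 7 and after forskolin (-0.87 and -0.99), and Cir1 likewise (-0.59 and -0.88). Kat2b rose at day 7 with both forms (0.72 and 0.80) and after forskolin with Δpro#3 (0.72), and Tle1 rose with NFIA at day 7 (0.63). Maml3, Ep300 and Ctbp1 fell with NFIA after forskolin (-0.80, -0.59 and -0.60).

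Of the 6 other ligands listed, 3 were tested, and each was called in at least 1 comparison. Nov, a secreted protein listed here as a non-canonical ligand, was at 8.73, 9.10 and 9.72 FPKM in control, 307, 335 and 371 in NFIA and 105, 109 and 107 in Δpro#3 cells at day 0, with log2 changes of 5.05 (adjusted p = 3.20e-13) and 3.41 (adjusted p = 2.88e-11). It was higher with both forms at each later time point too, by 2.87 and 2.29 at day 7 and by 3.67 and 2.24 after forskolin. Dlk2 fell with NFIA at day 7 (-1.0) and after forskolin (-0.92). Egfl7 was higher with NFIA at day 0 (0.64) and lower at day 7 (-0.64).

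Across the 9 group means of log2(FPKM + 1), the genes most like each member were named as a description only, since the groups share cells and constructs. Over these 9 points, Notch1 was nearest to Keap1 (Pearson r = 0.970) and Plcl1 (0.960), Notch2 to Isyna1 (0.943) and Spen (0.934), and Notch3 to Prpf4b (0.957) and Prrg4 (0.954). Dll1 was nearest to Bcl7a (0.984) and Ccdc141 (0.973), Jag1 to Chid1 (0.964) and Entpd6 (0.952), Jag2 to Igdcc4 (0.956) and Adamts14 (0.956), and Rbpj to Afmid (0.982) and Atp11b (0.981). Prpf4b ranged by 0.27 and Notch3 by 2.74 over the groups on that scale, so likeness in pattern was not likeness in size.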

How the data were processed

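The 27 samples, in 9 groups of 3 taken from the deposited labels, were polyA-selected RNA of C2C12 cells. The libraries were stranded. The authors aligned reads to mm9 with STAR 2.5.3a, kept unique alignments, counted fragments on the matching strand and deposited linear FPKM. The samples were not rescaled against each other. The deposited values were whole multiples of 1 fragment (100%, within 0.05), so fragments per gene were worked back. Counts limit precision, since 9567769 to 27230965 fragments were held per library.

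Expression was compared on log2(FPKM + 1) with limma 3.58.1 in R 4.3.3 (moderated variances with a trend, 2-sided, Benjamini-Hochberg adjustment over all genes tested). Each fit used genes with a mean of 0.5 FPKM or more, in the 9 samples of a time point or the 18 samples of 2 time points. A gene was called at an adjusted p under 0.05 and over 1.5-fold in FPKM + 1. Exact permutation tests were run for members below the filter. Alternatives were another pseudocount (0.1), median-ratio scaling, no filter, a minimum of 2 FPKM, fits of only the groups compared, no trend, a replicate block, limma-voom on fragments, a 3-fold limit and each sample left out. Figures and tables used Python 3.11.15. Named were all members, the pathway genes called between constructs (1 of them is not reported here), the 2 genes with the highest correlation to each member, and Nfia. The members, pathway lists and marker lists (myoblast, myotube, adipocyte, endothelial, mural or smooth muscle, macrophage) were chosen with earlier results of these data known. No pair of replicates agreed within counting noise.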

Additional observations from a re-analysis of the deposited data

Results flagged for a closer look

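The difference between constructs in a change was itself tested by limma for each of the 7 tested members, over time and with forskolin, and it was called for 13 of 28 cases, with the control samples entering each of them. For the change over time it was called for 6 of 7 members with NFIA (37.5% of all genes) and 4 of 7 with Δpro#3 (14.8%), and for the response to forskolin for 3 of 7 with NFIA (10.0%) and 0 of 7 with Δpro#3 (2.33%). All values below are log2 differences on the FPKM + 1 scale. In the change from day 0 to day 7, the NFIA cells differed from control by 1.44 for Dll1, 1.07 for Jag2, 0.78 for Notch1, 0.78 for Notch2, 1.43 for Notch3 and -0.91 for Rbpj. The Δpro#3 cells differed by 1.21 for Dll1, 1.73 for Jag2, 0.78 for Notch1 and 2.12 for Notch3. The differences of Notch1, Notch2 and Notch3 with NFIA and of Notch1 with Δpro#3 were smaller falls than in control cells. In the response to forskolin, the NFIA cells differed by -1.12 for Jag1, -1.0 for Notch2 and -1.03 for Notch3. The myotube, myoblast, adipocyte and mural or smooth muscle markers moved with the same groups, as given above, and their part in these differences was not tested.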

How the results depend on the processing

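No called log2 change of a member turned direction under any alternative. With median-ratio scaling, the split of all called genes into higher and lower changed sides in 8 of 19 comparisons, those over 10 percentage points and that of day 7 being given above. Counts of members called in each comparison were within 1.5 times under no filter, a minimum mean of 2 FPKM, a fit restricted to the compared groups, variances moderated with no trend, and the replicate block. With the replicate block, NFIA against control gave 6 members at day 0, and no member's call changed in any comparison. Samples of the same number did not deviate together on average (mean correlations of 0.0139 at day 0, -0.0314 at day 7 and -0.00195 after forskolin). Single pairs ranged from -0.173 to 0.131 at day 7. The labels do not say whether samples of the same number shared anything beyond it. The forskolin response of NFIA cells held 1 member and went to 4 with a pseudocount of 0.1, 2 with scaling and 4 with limma-voom on fragments. Its difference from control with Δpro#3 went from 0 to 1 with the pseudocount of 0.1 and with limma-voom. With a 3-fold limit, NFIA against control kept 3 members at day 0, 0 at day 7 and 1 after forskolin, Δpro#3 against control 1, 0 and 0, and Δpro#3 against NFIA 0, 1 and 1. The same limit left 1 for the time course of control cells, 0 for NFIA and 0 for Δpro#3 cells, with 0 and 2 for the differences from control, and left 1 for forskolin in control, 0 in NFIA and 0 in Δpro#3 cells, with 0 for the NFIA difference. Leaving out each sample in turn gave 3 to 4 members over time in control cells, 4 to 6 for NFIA against control and 4 to 6 for Δpro#3 against NFIA at day 7, and 5 to 7 and 7 to 8 for the same after forskolin, where Dll4 can pass the filter. It gave 1 to 3 for forskolin in NFIA cells (2 without NFIA replicate 1, 2 or 3 of day 7 and 3 without NFIA replicate 1 of forskolin) and 0 to 1 for its Δpro#3 difference (1 without control replicate 2 of day 7 or Δpro#3 replicate 1 of forskolin), and left the other 12 counts as they were. Counts of all genes called with forskolin rose from 507 to 768 in control, 1656 to 2503 in NFIA and 910 to 1396 in Δpro#3 cells with the pseudocount of 0.1, and to 803, 2559 and 1473 with limma-voom. Depth limits Notch4 and Nrarp, at most 32 and 54 fragments per group, and the 3 samples per group limit exact tests to p = 0.1.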
